A study of Homo sapiens with 12 samples.

Results

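The comparison described here sets TYRO3 that resists the second of its cleavages against TYRO3 that resists the first. It covers the 6 libraries, of 12 in the study, whose titles name TYRO3 dGS or TYRO3 dADAM, 1 of each in each of 3 experiments, and the 2 libraries of an experiment were compared with each other. All 12 libraries came from WM-266-4, a human melanoma cell line in which a lentivirus had stably knocked TYRO3 down and which was kept in puromycin. The cells were transfected with the jetPRIME reagent, starved of serum overnight, and their polyadenylated RNA was sequenced. The dGS cells received the pEZY-myc-his plasmid with TYRO3 ΔGS, which carries I449A at the gamma-secretase site. The dADAM cells received the same plasmid with TYRO3 ΔADAM, which carries P408A, L409P and G419P at predicted sites of ADAM proteases. The paper proposes that ΔADAM is cleaved less readily than wild-type TYRO3. The other 2 groups, with 3 libraries each, received wild-type TYRO3 (WT) or GFP. They entered the fit only to share its common terms (spread, experiment, scaling and filter) or as the background level. This is 1 cell line, TYRO3 was expressed from a plasmid on top of the knock-down, and nothing in the labels says that the experiments used separately derived lines, so p-values measure the spread between 3 transfections.

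TYRO3, AXL and MERTK form the TAM family of receptor tyrosine kinases, whose ligands are GAS6 and PROS1. Like Notch and ERBB4, TYRO3 can be cut in steps. A membrane protease of the ADAM family, such as ADAM10 or ADAM17, first sheds the part outside the cell, and gamma-secretase, a protease complex of the membrane, then cuts the remaining stub within the membrane and frees the intracellular domain. Without the first cut the receptor stays whole, and without only the second a membrane-bound stub is left after shedding. Both constructs are altered at a site, in dADAM a predicted one, needed to free the intracellular domain, and they differ in the step that is altered. The question of this comparison is whether any gene responded to that difference.

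The codons that the labels name are shown because they define the comparison. The stretches below were read from TYRO3-201 of GENCODE 29 on GRCh38, plus strand of chromosome 15, with the label's codons in capitals. The ADAM stretch spans codons 404 to 423 in exons 9 and 10 (chr15:41568980-41570043, intron left out), and its capitals mark codons 408, 409 and 419. The gamma-secretase stretch spans codons 441 to 457 in exon 10 (chr15:41570095-41570145), and its capitals mark codon 449.
ADAM stretch: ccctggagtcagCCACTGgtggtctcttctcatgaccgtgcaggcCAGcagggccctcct
gamma-secretase stretch: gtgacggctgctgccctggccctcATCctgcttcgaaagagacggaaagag
Codons 408 (CCA), 409 (CTG) and 449 (ATC) encode the residues that the labels name. Codon 419 of this transcript is CAG, whereas G419P names a glycine, and the nearest glycine codon is 418. The paper predicts a cleavage site at A418/G419, an alanine and a glycine. In the stretch gca (alanine) and ggc (glycine) come directly before CAG, so that pair is numbered differently here. The codon that the plasmid changes there was not settled. The mutated sequences themselves were not in the files.

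Depth was 23486100, 25155512 and 24052056 estimated counts in dGS and 34412887, 22808876 and 29122646 in dADAM of experiments 1, 2 and 3. The lowest total of the series was 4008293, in GFP of experiment 1. Markers of melanocytic cells were present (SOX10 at 271 and PMEL at 913 TPM, the length-corrected unit of kallisto, as means of the 6 libraries). Of 16 markers of other cell types 3 were at 0 in all 6 libraries, and their summed level was 82.6 to 122 TPM in dGS and 89.3 to 106 TPM in dADAM, nearly all of it CD68 and LUM. Mitochondrial transcripts took 7.25%, 5.71% and 4.39% of the counts in dGS and 6.41%, 6.17% and 4.41% in dADAM.

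The dGS library of experiment 3 stood apart from the other 5. Over the 6878 genes with a mean of at least 20 TPM, 0.189% differed by more than 1.5-fold between dGS and dADAM of experiment 1, 0.247% in experiment 2 and 4.67% in experiment 3. Pairs of libraries with the same construct from different experiments differed at 3.10% to 5.36% of these genes without that library, and at 19.8% and 20.6% with it. In experiments 1 and 2, then, libraries of different constructs from 1 experiment were closer than any libraries of 1 construct from different experiments.

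**Figure D1:**
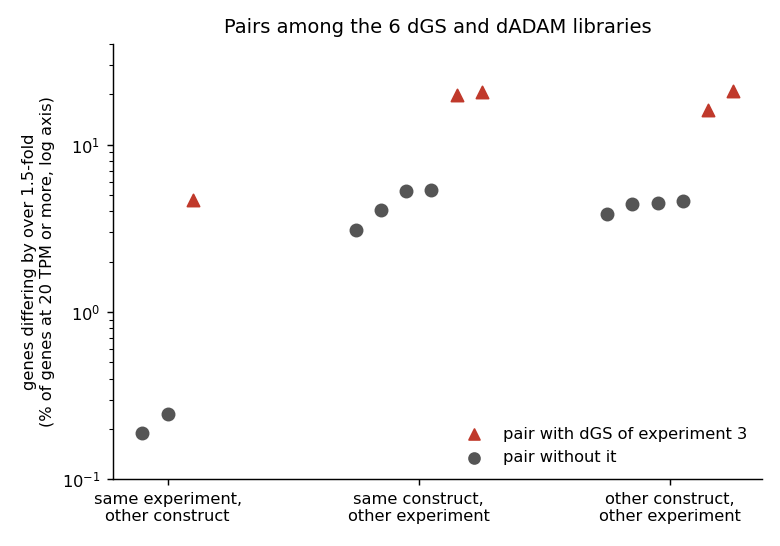
Percentage of 6878 genes (mean of at least 20 TPM) whose log2 CPM differed by more than 1.5-fold, on a log axis, for each of the 15 pairs of the 6 libraries, by whether the pair shares an experiment, a construct or neither. Triangles are pairs with the dGS library of experiment 3. Circles of the same experiment lie at 0.189% and 0.247%, below all other pairs.

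The distance of that library followed transcript length. In experiment 3 the median difference of dGS minus dADAM, in log2 CPM (estimated counts scaled to library size), was 0.41 over 844 genes with transcripts under 1000 bases, 0.22 over 2529 genes of 1000 to below 2000 bases, 0.01 over 1773 genes of 2000 to below 3000 bases, -0.17 over 1341 genes of 3000 to below 5000 bases and -0.40 over 391 longer genes. The same medians stayed between -0.09 and 0.04 in experiments 1 and 2. Each main value below was therefore also computed without this library, from experiments 1 and 2 alone, and with the length trend of every library removed, alternatives of which the last 2 were chosen after the trend had been seen.

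**Figure D2:**
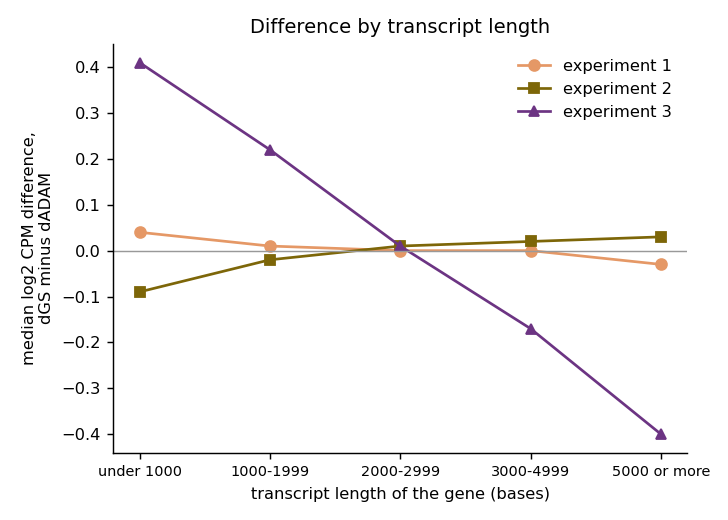
Median log2 CPM difference, dGS minus dADAM, in 5 classes of transcript length (bases, the mean over the transcripts of a gene weighted by TPM) for each experiment, over genes with at least 20 TPM. The line of experiment 3 runs from 0.41 to -0.40 and those of experiments 1 and 2 stay near 0.

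Both constructs were expressed far above the knocked-down level. TYRO3 (chr15:41557675-41583586) was at 3694, 1436 and 1648 CPM in dGS, at 3284, 1215 and 1181 CPM in dADAM and at 3064, 1791 and 1369 CPM in WT of experiments 1, 2 and 3, with GFP libraries at 53.1, 47.3 and 56.6 CPM. The libraries of experiment 1 held the most TYRO3 in each TYRO3 group, so dGS and dADAM overlapped over all experiments, while dGS was the higher of the pair within each. The differences within experiments were 0.17, 0.24 and 0.48 on the log2 scale. The fitted difference was 0.29 (SE 0.22, 95% interval -0.20 to 0.78, adjusted p = 1.0, edgeR quasi-likelihood test with Benjamini-Hochberg adjustment), so a somewhat higher TYRO3 level in dGS was not told apart from the spread. Against the GFP libraries that both share, TYRO3 was 5.21 higher in dGS (adjusted p = 1.35e-05, edgeR) and 4.92 higher in dADAM (adjusted p = 1.46e-05, edgeR). The difference between the constructs was 0.28 without the dGS library of experiment 3, and 0.52 without the dADAM library of experiment 1.

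**Figure D3:**
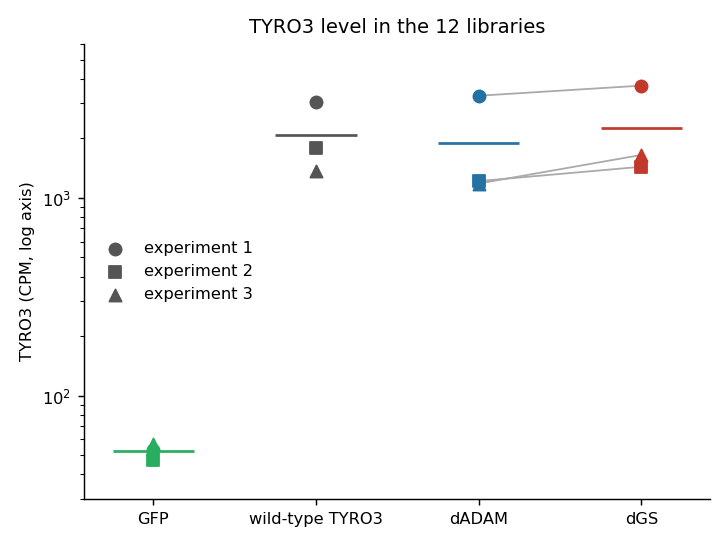
TYRO3 level (CPM, log axis) in each of the 12 libraries. Symbols give the experiment, grey lines join dADAM and dGS of an experiment, and horizontal bars are group means. The 9 TYRO3 libraries lie between 1181 and 3694 CPM and the 3 GFP libraries between 47.3 and 56.6 CPM.

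Most counts of TYRO3 fell on 1 of its 9 transcripts in both groups. TYRO3-202, a protein-coding transcript of 3876 bases, took 92.8%, 94.1% and 91.5% in dGS and 93.0%, 93.1% and 91.3% in dADAM. The shares interleaved, with a mean of 92.8% ± 1.28 (SD, n = 3) in dGS and 92.5% ± 0.990 (SD, n = 3) in dADAM (exact permutation test, two-sided, p = 0.9, where the smallest p that 3 against 3 libraries allows is 0.1, so the test could not have passed 0.05). TYRO3-204, a transcript annotated for nonsense-mediated decay, took 0.782% ± 0.322 (SD, n = 3) in dGS and 0.543% ± 0.0706 (SD, n = 3) in dADAM. In GFP, whose cells received no TYRO3 plasmid, TYRO3-202 took 52.2%, 61.6% and 69.4%. TYRO3-209, annotated as retaining an intron, took 21.1%, 23.1% and 19.2% there, compared with at most 0.888% in any dGS or dADAM library. The source of the TYRO3 counts in GFP was not tested.

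No gene passed the test between dGS and dADAM. Of 15098 genes tested, 0 were called in either direction (0.0%) at an adjusted p of at most 0.05 and a fold change over 1.5, and the lowest adjusted p was 1.0. At an unadjusted p under 0.05 there were 93 genes with a higher estimate in dGS (0.616%) and 123 with a lower one (0.815%), 216 together (1.43%). That share is below the 0.05 that evenly spread p-values would give, so the test may have been conservative here, which was not tested. DESeq2 called 1 gene, AC107075.1, an unprocessed pseudogene with 124.8 estimated counts in the dGS library of experiment 3, 0 in the other 5 libraries and 63.8 and 18.3 in 2 GFP libraries (adjusted p = 0.0446, DESeq2). Without the dGS library of experiment 3, edgeR called 1 gene, SLC39A7, which is described below, and from experiments 1 and 2 alone it called 0.

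The intervals say how large a difference could have gone unseen. For 11015 genes (73.0%) the 95% interval of the fold change lay inside 1.5-fold in both directions, with a median half-width of 0.27 on the log2 scale over all genes. Among the 6878 genes with at least 20 TPM this held for 6675 (97.0%), with a half-width of 0.21, and only 6 had an estimate beyond 1.5-fold. Among the 1829 genes under 1 TPM it held for 53 (2.90%), and 316 had an estimate beyond 1.5-fold, so for most weakly expressed genes a difference of 1.5-fold was not told apart from none. These intervals are per gene and not adjusted for the number of genes. The count was 10738 from experiments 1 and 2 alone and 11199 with the length trend removed.

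Genes that answered to wild-type TYRO3 were set aside as a group, since their choice compared WT with GFP and neither mutant. The mutant libraries still entered that fit through the shared spread, experiment terms, scaling and filter. The choice was therefore not fully independent of them. Of 355 genes called in WT against GFP (1.66% of all genes higher, 0.689% lower), 0 were called between dGS and dADAM, 7 had an unadjusted p under 0.05 (216 of all 15098 genes did, 1.43%), and for 266 (74.9%) the interval lay inside 1.5-fold, beside 73.0% of all genes. Their intervals were wider, with a median half-width of 0.38 compared with 0.27 over all genes. Their median absolute log2 fold change was 0.93 in WT against GFP and 0.09 between dGS and dADAM, the same as the 0.09 over all genes tested. The choice of these genes required a fold over 1.5 in WT against GFP. The 0.93 was therefore bound to be large, and its distance from 0.09 is not a result.

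The receptor family and the proteases that cut it were at close levels in both groups. AXL, the next TAM receptor by TPM after TYRO3, was at 169, 113 and 90.9 CPM in dGS and 185, 97.9 and 101 CPM in dADAM, with overlapping groups and a log2 fold change of -0.04 (95% interval -0.37 to 0.29). MERTK, the third receptor, had 0.10 (-0.33 to 0.53), and the ligands GAS6 and PROS1 had 0.02 (-0.54 to 0.57) and 0.00 (-0.16 to 0.17). In 6 of the 7 members of the TAM list that were tested the interval lay inside 1.5-fold, all but TYRO3 itself being at or below 0.15 in size.

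ADAM10, a sheddase for many receptors, was at 160, 161 and 114 CPM in dGS and 151, 163 and 141 CPM in dADAM, and ADAM17, which sheds TNF and EGFR ligands, was at 155, 136 and 102 CPM and at 154, 127 and 153 CPM. In both, the dGS library of experiment 3 held the lowest value and the groups otherwise overlapped. Their log2 fold changes were -0.07 (-0.28 to 0.14) and -0.16 (-0.41 to 0.10), and ADAM17 was at 0.05 from experiments 1 and 2 alone. All 6 subunits of gamma-secretase had intervals inside 1.5-fold: PSEN2, a catalytic subunit, had 0.14 (-0.04 to 0.32), the substrate receptor NCSTN -0.02 (-0.17 to 0.14), APH1A 0.09 (-0.09 to 0.26) and PSENEN 0.13 (-0.11 to 0.36). PSENEN, whose transcript is short, had differences of -0.02, -0.07 and 0.44 in experiments 1, 2 and 3 and a value of 0.00 with the length trend removed.

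The gene lists covered signalling pathways, stress and metabolic responses, the cell cycle, states of melanoma cells, and checks of cell type and RNA quality. Of 492 distinct genes in 25 lists 460 were tested, and 0 were called between dGS and dADAM. At an unadjusted p under 0.05 there were 9 (1.96%, beside 1.43% of all genes), and the interval lay inside 1.5-fold for 358 (77.8%, beside 73.0%). List medians ran from -0.08 to 0.19, with 0.01 over all genes. The lists were chosen with earlier results of these data known, so their counts are descriptions.

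The highest list median, 0.19, was that of the STAT3 and SOCS genes, which signal from cytokine receptors and dampen that signal. Of 14 members tested 10 had higher and 4 lower estimates in dGS, 8 had the same sign in the 3 experiments (20.2% of all genes tested did), and the medians within experiments were 0.08, 0.14 and 0.26. Only 6 of the 14 intervals (42.9%) lay inside 1.5-fold, the lowest share of the lists apart from the markers of other cell types. The median was 0.14 with the length trend removed and 0.11 from experiments 1 and 2 alone.

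SOCS3, the feedback inhibitor of JAK kinases that STAT3 induces, had the largest estimate of that list. SOCS3 (chr17:78356778-78360077) was at 63.2, 47.0 and 43.2 CPM in dGS and at 36.6, 37.5 and 31.0 CPM in dADAM of experiments 1, 2 and 3, and at 17.9, 27.5 and 18.1 CPM in GFP. All 3 dGS libraries lay above all 3 dADAM libraries, a pattern that 364 of all genes tested showed in either direction (2.41%), and both groups lay above the GFP libraries. The means were 51.2 ± 10.6 CPM (SD, n = 3) in dGS and 35.1 ± 3.51 CPM (SD, n = 3) in dADAM. The difference was 0.54 on the log2 scale (SE 0.14, 95% interval 0.22 to 0.86, 1.45-fold, adjusted p = 1.0 by edgeR), 0.51 without the dGS library of experiment 3, 0.57 from experiments 1 and 2 alone and 0.54 with the length trend removed. Over all alternatives it ran from 0.39 to 0.68. Against GFP, SOCS3 was higher in both groups, by 1.21 in dGS (adjusted p = 0.00246) and by 0.67 in dADAM (adjusted p = 0.0245), 2 values that share the GFP libraries. In WT the levels were 49.6, 46.7 and 30.8 CPM.

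The other members of the list had smaller estimates or wider intervals. SOCS2, a further suppressor, had 0.16 (-0.03 to 0.34) with groups that did not overlap, IL6, the cytokine upstream of STAT3, 0.22 (-0.31 to 0.75), CEBPD, a transcription factor that STAT3 induces, 0.32 (-0.07 to 0.72), and STAT3 itself -0.12 (-0.31 to 0.07). IL6 was 1.99 above GFP in dGS (adjusted p = 0.00483) and 1.77 in dADAM (adjusted p = 0.00727). IL6, CEBPD and STAT3 were chosen for mention after their values were seen.

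Among genes of growth signalling, FOS, an immediate early gene of the ERK pathway, was at 13.8, 11 and 10.3 CPM in dGS and 8.94, 8.92 and 8.73 CPM in dADAM. The groups did not overlap, the 3 dADAM libraries were nearly equal, and GFP, at 9.73, 14.0 and 11.4 CPM, spanned the dGS values. The log2 fold change was 0.39 (95% interval 0.06 to 0.73, adjusted p = 1.0 by edgeR), and 0.21 without the dGS library of experiment 1. The 20 ERK genes as a list had a median of -0.03, and 18 of them had an interval inside 1.5-fold, all but FOS and EGR1, another immediate early gene, at 0.25 (-0.36 to 0.87).

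NFKB1, the p50 subunit of NF-kB, was at 44.5, 59.7 and 38.0 CPM in dGS and 58.5, 60.1 and 62.7 CPM in dADAM. The groups overlapped at experiment 2, where the difference was -0.01, compared with -0.39 and -0.72 in experiments 1 and 3, and the fitted value was -0.37 (-0.66 to -0.09), or -0.24 without the dGS library of experiment 3. CCL2, a chemokine that NF-kB induces, had 1.19 (0.13 to 2.26) at 0.0696 to 0.655 CPM, a level at which few reads stand behind each value. The 19 NF-kB genes had a median of 0.08.

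Of the remaining members at an unadjusted p under 0.05, DLL4, a Notch ligand, had 0.72 (0.00 to 1.45), ADM, a hypoxia-responsive peptide hormone, -0.61 (-1.21 to -0.02), PMVK, an enzyme of cholesterol synthesis, 0.24 (0.04 to 0.43), CTSL, a lysosomal protease, 0.16 (0.00 to 0.32), and TNC, a matrix protein, -0.23 (-0.46 to -0.00). Each belonged to a different list, and those lists had medians between -0.05 and 0.06. TNC was at -0.12 with the length trend removed and -0.06 from experiments 1 and 2 alone, and PMVK at 0.13 under both.

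Groups of genes that both constructs moved against GFP lay side by side. Of the 460 list genes 132 were called in dGS against GFP and 122 in dADAM against GFP, where 2.81% and 3.15% of all genes were called higher and 1.88% and 2.05% lower, and the GFP libraries are shared. Interferon-stimulated genes, 34 in number, had medians of 1.47 in dGS and 1.5 in dADAM with 29 and 28 called. ISG15, an interferon-induced ubiquitin-like protein, was 1.33 (adjusted p = 0.0141) and 1.12 (adjusted p = 0.0225) above GFP by edgeR. Between the constructs this list varied from experiment to experiment, with medians of 0.07, -0.26 and 0.15, and IRF7, a transcription factor that amplifies interferon, had differences of -0.15, -0.07 and 2.72.

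Genes of the integrated stress response and amino acid supply had medians of 1.03 in dGS and 1.00 in dADAM against GFP, with 21 and 22 of 30 called. ATF4, the transcription factor of that response, was 1.07 and 0.98 above GFP (adjusted p = 0.0166 and 0.0199, edgeR) and differed by 0.09 between the constructs (-0.37 to 0.55). Cholesterol genes had medians of -0.92 and -0.90, with 23 and 22 of 24 called, and the constructs differed by a median of -0.01. Invasive melanoma genes had medians of 0.85 and 0.93, and THBS1, a matrix glycoprotein, was 1.07 and 1.20 above GFP (adjusted p = 0.00202 and 0.00128, edgeR). ISG15, ATF4 and THBS1 were picked after their values were seen, as the most abundant or best known of their lists.

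**Figure D4:**
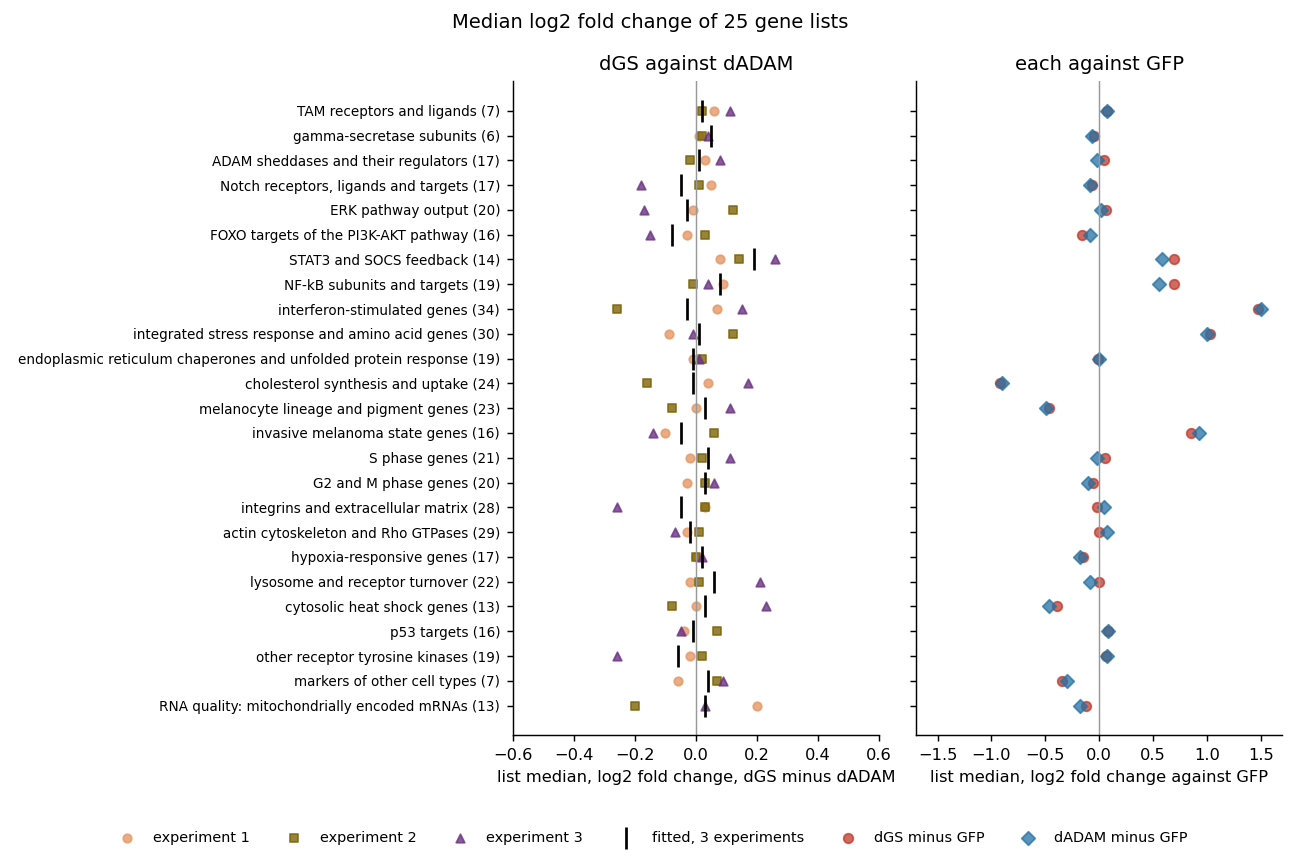
Median log2 fold change of 25 gene lists, with the number of genes tested in brackets. Left, dGS minus dADAM in each experiment (symbols) and fitted over the 3 experiments (black bars), all fitted medians between -0.08 and 0.19. Right, each construct minus the same GFP libraries, from -0.92 to 1.5.

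Cell cycle genes of the S phase (21 tested) and of G2 and M phase (20 tested) had medians of 0.04 and 0.03, and the interval lay inside 1.5-fold for 20 of each. Chaperones of the endoplasmic reticulum had a median of -0.01 and an interval inside 1.5-fold for all 19. Pigment and lineage genes, of which MITF is the master regulator, had a median of 0.03 over 23. For 13 of those 23 (56.5%) the interval lay inside 1.5-fold. The integrin and matrix genes and the other receptor tyrosine kinases each had a median of -0.26 in experiment 3, the experiment with the length trend, and medians from -0.02 to 0.03 in experiments 1 and 2.

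Outside the lists, the genes with the smallest unadjusted p among those with 1 sign in all 3 experiments were read as values, not as changes. ZBTB14, a zinc finger repressor, was at 12, 15.6 and 16.0 CPM in dGS and 18.4, 18.5 and 19.1 CPM in dADAM. GFP, at 17.6, 19.1 and 17.7 CPM, and WT, at 19.2, 18.0 and 18.5 CPM, sat with dADAM, and the log2 fold change was -0.36 (SE 0.11, 95% interval -0.60 to -0.13). TMEM173, the STING adaptor of cytosolic DNA sensing, was at 31.2, 22.5 and 26.9 CPM in dGS and 23.4, 19.4 and 19.5 CPM in dADAM. It was higher in dGS within each experiment although the groups overlapped, with 0.37 (SE 0.11, 0.13 to 0.61). CBFB, the partner of the RUNX factors, was at 63.7, 51.5 and 45.3 CPM in dGS and 79.7, 58.5 and 63.3 CPM in dADAM, lower in dGS of each experiment, with -0.33 (SE 0.10, -0.54 to -0.11).

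**Figure D5:**
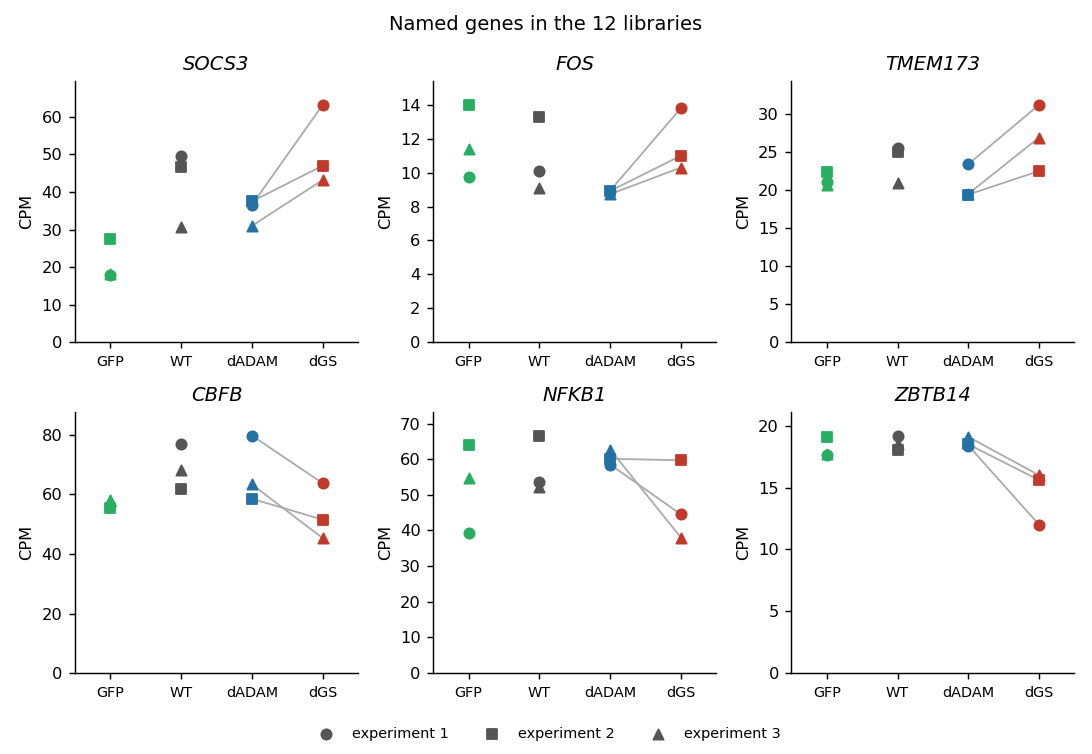
CPM of SOCS3, FOS, TMEM173, CBFB, NFKB1 and ZBTB14 in each of the 12 libraries (axes start at 0), with the libraries of an experiment by symbol and dADAM and dGS of an experiment joined. SOCS3, FOS and ZBTB14 have dGS and dADAM groups that do not overlap, and none of the 6 genes passed the test.

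Further genes of this kind were PRKD1, a protein kinase D, at -0.55 (-0.91 to -0.19), RAD54B, a DNA repair helicase, at -0.35 (-0.58 to -0.11), and PTBP2, a splicing regulator, at 0.31 (0.09 to 0.53). PTBP2 differed by 0.33, 0.31 and 0.27 in experiments 1, 2 and 3. AP3S2, a subunit of an adaptor complex of vesicle transport, had -0.23 (-0.44 to -0.01), with -0.22, -0.25 and -0.20 in the 3 experiments. DMWD had -0.28 (-0.53 to -0.03) and the pseudogene GTF2IP4 0.36 (0.07 to 0.64), and like PRKD1 and RAD54B they had their largest difference in experiment 3. Without the dGS library of that experiment RAD54B was at -0.22, PRKD1 at -0.42 and DMWD at -0.13, and GTF2IP4 was at 0.21 without its dADAM library. All 6 had an adjusted p of 1.0 by edgeR.

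Several other genes chosen by the same rule sat on few reads or belong to families with copies. XIRP1, a muscle actin-binding protein, had a log2 fold change of 3.09 (1.09, 1.07 and 0.656 CPM in dGS and 0.0590, 0.265 and 0.0348 CPM in dADAM), and WT libraries, at 1.26, 2.54 and 1.20 CPM, sat with dGS. VWA3A had -2.79 at 0.0437 to 0.238 CPM in dGS and 0.839 to 1.03 CPM in dADAM, and its interval, like that of XIRP1, reaches several-fold. KCNJ3 (-1.52), AC058822.1 (-2.66), SERPINB4 (2.06) and AC135050.2 (2.56) had a mean under 1 TPM. ADGRE3, an adhesion receptor, had -0.75 at 0.992 to 2.18 CPM and 1.72 to 3.42 CPM. ANKRD20A2 (1.77), HIST1H3B (1.93) and ARHGAP11B (-0.63) belong to families with near-identical copies, and AC010970.1 and RNA5-8SP6, with 1.95 and 2.25, are pseudogene loci that hold ribosomal RNA sequence, so their counts are uncertain.

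SLC39A7, a zinc transporter of the endoplasmic reticulum, and FKBPL, an immunophilin-like protein, both lie in the major histocompatibility complex on chromosome 6, which the transcriptome holds in several versions. SLC39A7 was at 12.6, 11.9 and 45.7 CPM in dGS and 70.6, 77.4 and 67.8 CPM in dADAM, with a log2 fold change of -1.78 (adjusted p = 1.0 by edgeR), and -2.55 (adjusted p = 0.0168) without the dGS library of experiment 3. Most of the difference was in 1 transcript, SLC39A7-202, at 74.7, 65.0 and 565.8 estimated counts in dGS and 2073.5, 1526.2 and 1550.1 in dADAM, whereas SLC39A7-201 had 195.7, 213.8 and 286.2 and 308.9, 209.3 and 340.3. For the other 3 transcripts the files held 15 entries of the same length and the same counts that GENCODE 29 does not list, so reads of this gene were split over copies outside the sum. SLC39A7-202 itself had no such entry. As a gene, SLC39A7 was at 41.7, 26.7 and 39.8 CPM in WT and at 16.8, 30.2 and 25.1 CPM in GFP. All dADAM libraries lay above all of these. Against the shared GFP libraries its log2 fold change was 1.54 in dADAM (adjusted p = 0.0352, edgeR) and -0.24 in dGS (adjusted p = 0.758, edgeR). FKBPL was at 13.3, 13.9 and 18.7 CPM in dGS and 2.30, 1.37 and 0.104 CPM in dADAM (3.59), with WT at 0.165, 15.1 and 1.55 CPM and GFP at 9.73, 13.4 and 16.8 CPM. The WT libraries thus spanned both groups. Its only transcript, FKBPL-201, had 0 unlisted entries of the same length and counts. This search finds only entries of equal length and equal counts in every library. A copy that differs in sequence would be missed, so whether reads of FKBPL-201 or SLC39A7-202 were split was not tested.

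Per transcript, 69182 were tested and 0 were called by edgeR in either direction (0.0%), with 504 (0.729%) and 527 (0.762%) at an unadjusted p under 0.05. Together they were 1.49%, again below the share of 0.05 that evenly spread p-values would give. The interval lay inside 1.5-fold for 8558 (12.4%), with a median half-width of 1.49 on the log2 scale, so most single transcripts could have differed by more than 1.5-fold without being seen. Of the 1031 transcripts at an unadjusted p under 0.05, 622 (60.3%) had fewer than 1 count in at least 1 of the 6 libraries, compared with 26.5% of all transcripts tested. In only 30 of them did the gene as a whole also have an unadjusted p under 0.05.

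The transcripts with the smallest p had larger estimates than their genes. FAM50B-201 and SCAP-216 had no dGS or dADAM library under 1 count, unlike the others named. HDAC11-201, a transcript of a histone deacetylase, had 1.9, 0.0 and 0.0 estimated counts in dGS and 86.1, 51.3 and 87.3 in dADAM, that is 75.5%, 70.3% and 76.6% of the counts of the gene in dADAM and at most 2.54% in dGS. The gene as a whole differed by 0.15 (-0.26 to 0.56). FAM50B-201 had 222.7, 246.4 and 153.6 estimated counts in dGS and 26.9, 30.6 and 15.4 in dADAM, and the gene differed by 0.20 (-0.11 to 0.52).

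SCAP-216, of the gene for the escort protein of the sterol-sensing factors, had 603.8, 575.9 and 779.8 in dGS and 265.0, 273.1 and 320.6 in dADAM, and its gene 0.05 (-0.16 to 0.27). The others named by the same rule were TBCD-210, YY1AP1-209 and DRAP1-202, which had at most 2.0 estimated counts in any dADAM library, and ELP5-215, ST3GAL2-204, GTPBP10-204 and HNRNPC-218, which had at most 11.2 in any dGS library. The intervals of these 7 genes lay inside 1.5-fold, with estimates from -0.07 to 0.13. The 10 genes have 3 to 33 transcripts each, among which kallisto divides the reads they share, and the part of that division in these values was not tested.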

How the data were processed

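RNA was sequenced from 12 libraries of WM-266-4 cells, 3 per construct, and titles gave the construct and the experiment. The authors trimmed the reads (Trimmomatic 0.33, checked with FastQC 0.11.9) and pseudoaligned them with kallisto 0.46.0 to a human transcriptome on GRCh38. Their batch correction is not in the values used here. The deposited estimated counts and the deposited TPM values (abundance per transcript length) stand as kallisto wrote them. kallisto divides reads between transcripts that share sequence, so sums per gene are firmer than single transcripts.

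Of 188753 transcripts 169797 matched GENCODE 29 by identifier. Their estimated counts were summed to 35579 genes and rounded. The other 18956 entered no gene sum.

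Genes and transcripts were tested with edgeR 4.0.16 (R 4.3.3, TMM, quasi-likelihood F test, Benjamini-Hochberg adjustment) over all 12 libraries with a term for each construct and experiment, after filterByExpr (min.count 10, min.total.count 15). A call needed an adjusted p of at most 0.05 and a fold change over 1.5. The 95% intervals come from the F statistic. Differences within an experiment are of log2 CPM with a prior count of 2. The experiment numbers pair the libraries, as the titles number the experiments. dGS and dADAM of 1 number deviated together from their group means (correlations 0.53, 0.40 and 0.48). Correlations between numbers were -0.36 to -0.09. These are no separate evidence, since centring on group means makes them negative on balance when those within numbers are positive.

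Alternatives were DESeq2 1.42.0, limma 3.58.1 on log2(TPM + 1) and log2(TPM + 0.1), other filters, scaling, blocks and sets of libraries. The code was tested on simulated data. Sequences and positions came from GENCODE 29 on GRCh38.

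Genes named are TYRO3, its relatives, ligands, sheddases and gamma-secretase subunits, then those with the smallest p and 1 sign in all 3 experiments (up to 10 each way, and up to 5 each way with a mean of at least 20 TPM), the 2 with the smallest p in each list, and 5 transcripts each way, and some of these are not reported here. Members and lists were chosen with earlier results of these data known.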

Additional observations from a re-analysis of the deposited data

How the results depend on the processing

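No gene was called between dGS and dADAM under any alternative except DESeq2, which called 1 (AC107075.1), and the fits that left out 1 library, which called 0 to 1, the 1 being SLC39A7 without the dGS library of experiment 3. Among transcripts DESeq2 called 260, of which 242 (93.1%) had a library under 1 count, limma on log2(TPM + 1) called 1 (HNRNPC-218) and limma on log2(TPM + 0.1) called 1 (ELP5-215), and 0 were called otherwise. The cause of these calls was not tested. The TYRO3 difference ran from 0.16 to 0.52 when 1 library was left out, with 0.52 without the dADAM library of experiment 1, and that of the TYRO3-202 share, 0.328 percentage points, from -0.304 without the dGS library of experiment 2 to 0.978 without that of experiment 3. Without the replicate block 0 genes were called, 8990 had an interval inside 1.5-fold in place of 11015, and the TYRO3 difference was 0.26, so the pairing changed no call. With log2 CPM of TYRO3 as a covariate, without GFP, 0 were called and 9665 intervals lay inside.

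That count of intervals ran from 8908 (limma on log2(TPM + 0.1)) to 11790 (limma on log2(TPM + 1)). The count of genes at an unadjusted p under 0.05, 216, was 82 without the block, 119 with a term for experiment 1 against the others, 137 with the TYRO3 covariate, 112 with at least 10 counts in every library, 358 with no filter and 141 by DESeq2. Leaving out 1 library gave 126 (dADAM of experiment 3) to 450 (dGS of experiment 2), with 403 without dGS of experiment 1 and 357 without dADAM of experiment 2. Of 2056 values of named genes under alternatives 1978 moved by less than the spread between experiments, and of 650 list medians 612. Intervals were wide for genes under 1 TPM and for most single transcripts, and the part of depth in this was not tested.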

Other observations

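The region of the major histocompatibility complex was looked at after the values of SLC39A7 and FKBPL had been seen. Of 115 genes tested in it 12 (10.4%) had an estimate beyond 1.5-fold between dGS and dADAM, compared with 469 of all 15098 genes (3.11%), and 7 had an unadjusted p under 0.05, compared with 216 of all genes (1.43%). SLC39A7 and FKBPL, which prompted the look, are in both counts, so the counts are descriptions. None was called by edgeR with all libraries. HSPA1B, an inducible heat shock protein with a near-identical neighbour, had a log2 fold change of -0.91 there. Entries outside GENCODE 29 with the same length and counts were looked for in SLC39A7, with 15 found, and in FKBPL, with 0 found, and in no other gene of the region. Copies that differ in sequence would not be found this way.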
